A study of Mus musculus with 12 samples.

Results

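Interferon-stimulated genes are the genes that a cell switches on when interferon binds its receptor, and 35 of them were followed here in mouse colonic epithelium. The members were the rows of the deposited counts with 35 listed symbols, and all 35 were found among the 23420 symbols of each file. Confluent monolayers at day 3, day 4 and day 5 were set against crypts, in 12 libraries of total RNA with 3 per group. All 4 groups derive from wild-type mouse colon, from a mouse of 6 to 10 weeks per the labels, with no transgene and no added agent named. Crypts are the glandular pits of the colon. For the monolayers, per the labels, crypt cells were first grown on collagen and then replated on scaffolds whose cross-linking forms a gradient, where they closed into a continuous sheet. The labels give a value in ohm cm2, the unit of transepithelial resistance (how tightly a sheet seals), of 526 ± 56 for day 3 sheets, of 623 ± 15 for day 4 sheets and of 407 ± 53 for day 5 sheets, with an error of unstated type.

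Interferons are secreted proteins that warn cells of infection. Type I interferons act on the receptor Ifnar1 and Ifnar2 in nearly all cells. Type III interferons (lambda) act on Ifnlr1 with Il10rb mainly in epithelia such as that of the gut. Type II interferon (gamma), made by lymphocytes, acts on Ifngr1 and Ifngr2. Type I and III receptors activate the kinases Jak1 and Tyk2, which phosphorylate Stat2 among others. Stat2 and Irf9 are subunits of the complex ISGF3, which binds the interferon-stimulated response element, a repeat of GAAA cores in the promoters of its targets. The products sense viral nucleic acid, block translation, degrade RNA or trap particles. Intestinal epithelium is known to hold some of them at a basal level.

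Gene counts summed to between 4518314 and 14290393 per library. On this depth 3 counts corresponded to 0.21 to 0.664 CPM (counts scaled to library size). Levels below are CPM adjusted by TMM factors, given for replicates 1, 2 and 3 in that order. Changes are log2 fold changes ± SE from edgeR, called at an adjusted p under 0.05. Of the 35 members, 34 passed the filter on low counts and were tested with 12863 genes in all. Ifi27l2a did not pass, and Zbp1 and Gbp2 passed it through the crypts, with fewer than 3 monolayer libraries over its minimum of 0.991 CPM. Ifi44 and Mx2 passed it through the monolayers, with 2 crypt libraries over that minimum. The summed level of 10 epithelial markers, among them Epcam and Vil1, was 11553 to 15406 CPM in monolayers and 10342 to 11652 CPM in crypts, with none of the 10 at 0 in any library. Crypts replicate 2 and, to a lesser extent, day 5 replicate 1 stood apart from the other libraries of their group in these genes. Each result that rests on crypts is given with and without crypts replicate 2. The labels do not say if libraries sharing a group stem from different animals or cultures. The p-values therefore reflect the spread among these libraries alone, which may be technical. A lower level in bulk RNA cannot tell fewer cells of a type from less RNA per cell.

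Letters of the response element were found in the promoters of 13 members. RefSeq promoter windows (build GRCm38.p6, 250 bases before to 50 bases after the gene's start) were at hand for 25 of the 35 members. The motif searched was GAAA, then 2 bases of any kind, then GAAA, which reads TTTC, 2 bases and TTTC on the other strand. Searched on both strands and with overlapping matches counted, it lay in 13 of these 25 windows (52%), against 3.99% of the 27025 genes with a window of the same length. A window with 2 or more matches was found for 6 members, against 0.266% of genes. The 6 stretches below are from members with a match wholly before the start. Of these they had the largest fitted changes between monolayers and crypts over all 12 libraries. That order rests on crypts replicate 2: without it Oas3 was at -0.28 and not called. Oas1a (-1.01), Ifit3 (0.54), Stat2 (0.53) and Bst2 (0.48), which also hold matches before the start, were then further from 0. Ddx58, Ifih1 and Eif2ak2 hold matches only after the start. Each stretch is written 5′ to 3′ along the gene's own strand with 25 bases on either side of the match and the match in capitals.
Gbp2 (chr3:142620579-142620638, + strand): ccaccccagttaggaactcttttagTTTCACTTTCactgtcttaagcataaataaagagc
Ifit1 (chr19:34640760-34640838, + strand): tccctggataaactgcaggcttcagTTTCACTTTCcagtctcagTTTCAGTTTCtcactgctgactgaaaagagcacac
Gbp3 (chr3:142559974-142560039, + strand): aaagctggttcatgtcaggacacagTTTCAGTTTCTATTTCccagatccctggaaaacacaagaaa
Isg15 (chr4:156200850-156200921, - strand): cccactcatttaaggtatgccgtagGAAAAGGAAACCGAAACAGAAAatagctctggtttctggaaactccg
Rsad2 (chr12:26456538-26456597, - strand): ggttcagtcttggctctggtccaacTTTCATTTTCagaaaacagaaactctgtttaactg
Oas3 (chr5:120777700-120777759, - strand): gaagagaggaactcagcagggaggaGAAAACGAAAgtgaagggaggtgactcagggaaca
The element of Isg15 held 3 overlapping matches, in which the GAAA core recurs 4 times along 1 run, and those of Ifit1 and Gbp3 held 2 each, apart in Ifit1 and sharing a core in Gbp3. Gbp2, Rsad2 and Oas3 held 1 match each. In Gbp2, Ifit1, Gbp3 and Rsad2 the motif ran on the opposite strand, as TTTC. The stretches end between 5 and 86 bases before the start. A match of these letters is a description of the window and not a bound site.

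Crypts replicate 2 held the highest level of the 3 crypt libraries for all 35 members, where 33.3% of all genes tested had their highest crypt level in that library. It exceeded the mean of the other 2 crypt libraries over 2-fold (on CPM + 1) for 29 of the 35 members, 28 of them among the 34 tested, against 2.9% of all genes. The median log2 ratio of the members was 2.28, and that of all genes was 0. The excess was smallest for Mx1 (1.39-fold on CPM), Eif2ak2 (1.58-fold) and Samd9l (1.78-fold). It was largest for Ifi44 (45.3-fold), Mx2 (29.8-fold) and Oas2 (22.2-fold). Ifi27l2a had 129 counts in crypts replicate 2, no count in crypts replicates 1 and 3, and at most 5 counts in any monolayer library. Crypts replicate 1 was the lowest of the 3 for 26 members (36.9% of all genes) and crypts replicate 3 for 8 (29.7%). The total of gene counts of crypts replicate 2, 7130784, lay between the 4518314 of replicate 1 and the 9939045 of replicate 3.

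**Figure D1:**
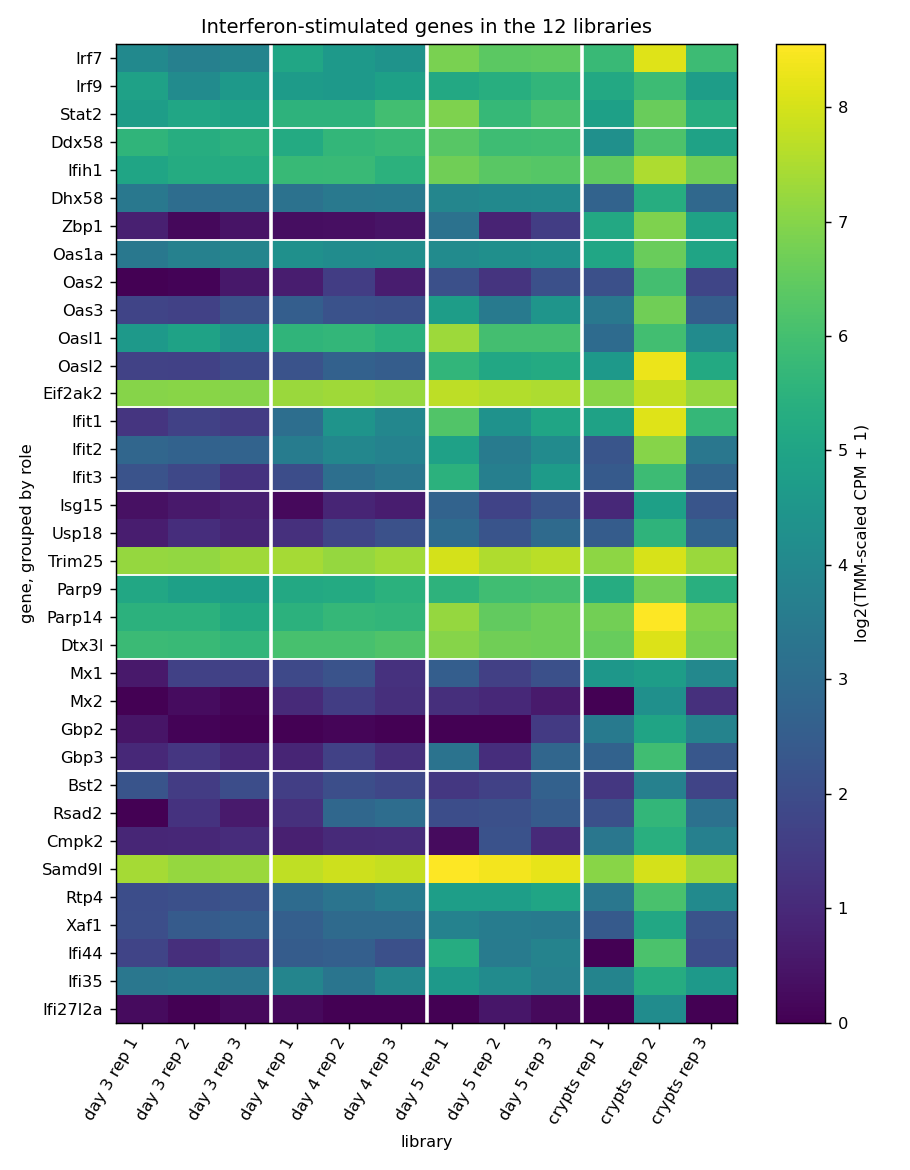
Level of each of the 35 members, as log2(TMM-scaled CPM + 1), in the 12 libraries, with monolayers at day 3, day 4 and day 5 to the left and crypts to the right, and genes grouped by role down the page. Crypts replicate 2 is the brightest crypt column for all 35 genes, and the day 5 columns are brighter than those of day 3 for most.

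The summed level of the 35 members showed both patterns. It was 810.0, 773 and 787 CPM at day 3, 1019.6, 1068 and 1076 CPM at day 4 and 2156, 1548 and 1624 CPM at day 5, against 1096, 3968 and 1286 CPM in crypts. The 3 days did not overlap with each other, day 5 replicate 1 was the highest monolayer library, and crypts replicates 1 and 3 lay below every day 5 library while replicate 2 lay above them all. The means were 790.3 ± 18.5 CPM for day 3, 1055 ± 30.5 for day 4, 1776 ± 331 for day 5 and 2116 ± 1606 for crypts (SD, n = 3 each), so the SD of the crypts was larger than the difference of any day from them.

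**Figure D2:**
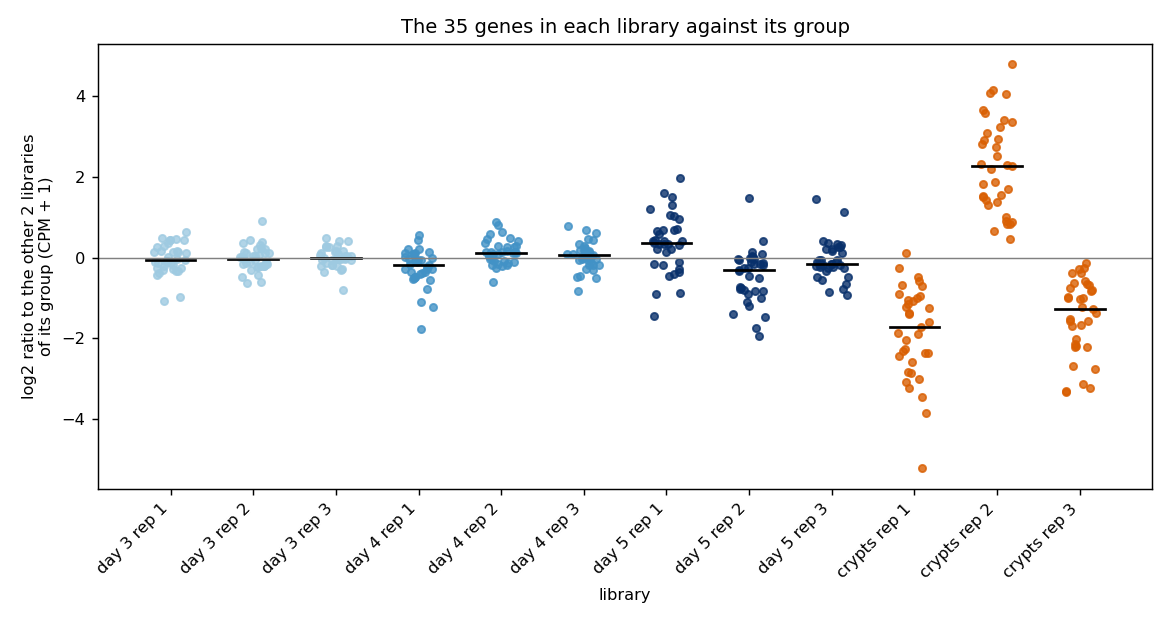
Log2 ratio of each library to the mean of the other 2 libraries of its group, on CPM + 1, for each of the 35 members (points) with their median (black line). The points of crypts replicate 2 all lie above 0 with a median of 2.28, and those of day 5 replicate 1 have a median of 0.37.

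The comparison of monolayers with crypts asks how the cultured sheet differs from the tissue it was grown from. Of the 34 members tested, 26 were called lower and 0 higher in monolayers, taken as the mean of the 3 days, where edgeR called 32.8% of all genes lower and 30.7% higher. The 26 include Zbp1 and Gbp2, whose direction the filter fixed, and of the other 32 members 24 were called lower. An unadjusted p under 0.05 was reached by 27 members. DESeq2, which gave no adjusted p for some members, called 0 higher and 21 of the 26 lower (3857 and 4357 of 12863 genes). The median change of the members was -1.75, against -0.026 over all genes. Leaving out crypts replicate 2 moved this count more than any other single library did: 13 members were then called lower and 6 higher (30.4% and 29% of all genes), with a median of -0.46 against -0.023 over all genes. The 13 all belonged to the 26 (Irf7, Ifih1, Zbp1, Oas1a, Oas2, Oasl2, Ifit1, Usp18, Parp14, Dtx3l, Mx1, Gbp2 and Cmpk2), and the 6 were Stat2, Ddx58, Dhx58, Oasl1, Samd9l and Ifi44. Ifi44 passed the filter through the monolayers, so its higher call without crypts replicate 2 is given as a description. Apart from Zbp1 and Gbp2, 11 of 32 members were then lower, a share near that of all genes. Every monolayer library lay below every crypt library for 5 members, Zbp1, Oas1a, Mx1, Gbp2 and Cmpk2, where 23.2% of all genes showed the same.

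Day by day, 28 members were called lower and 0 higher at day 3 against crypts (edgeR, 27.9% and 28.4% of all genes), 24 lower and 0 higher at day 4 (28.4% and 28.7%), and 14 lower and 2 higher at day 5 (28.9% and 28.4%). The 2 higher at day 5 were Oasl1 and Samd9l. The medians of the 34 members were -3.12 at day 3, -1.85 at day 4 and -0.69 at day 5, each against the same crypts and with a median over all genes between -0.028 and -0.017. Without crypts replicate 2 the counts were 20 lower and 2 higher at day 3 (26.4% and 27.3% of all genes), 13 lower and 3 higher at day 4 (26.9% and 27.4%), and 5 lower and 15 higher at day 5 (27.5% and 27.5%). The 5 that then remained lower at day 5 were Zbp1, Oas1a, Mx1, Gbp2 and Cmpk2, the same 5 whose monolayer libraries all lay below all crypt libraries. Both sets draw on the same crypt values. Zbp1 and Gbp2, whose direction the filter fixed, are among the lower members at all 3 days, with and without crypts replicate 2. Ifi44, which passed through the monolayers, is among the 15 higher at day 5.

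**Figure D3:**
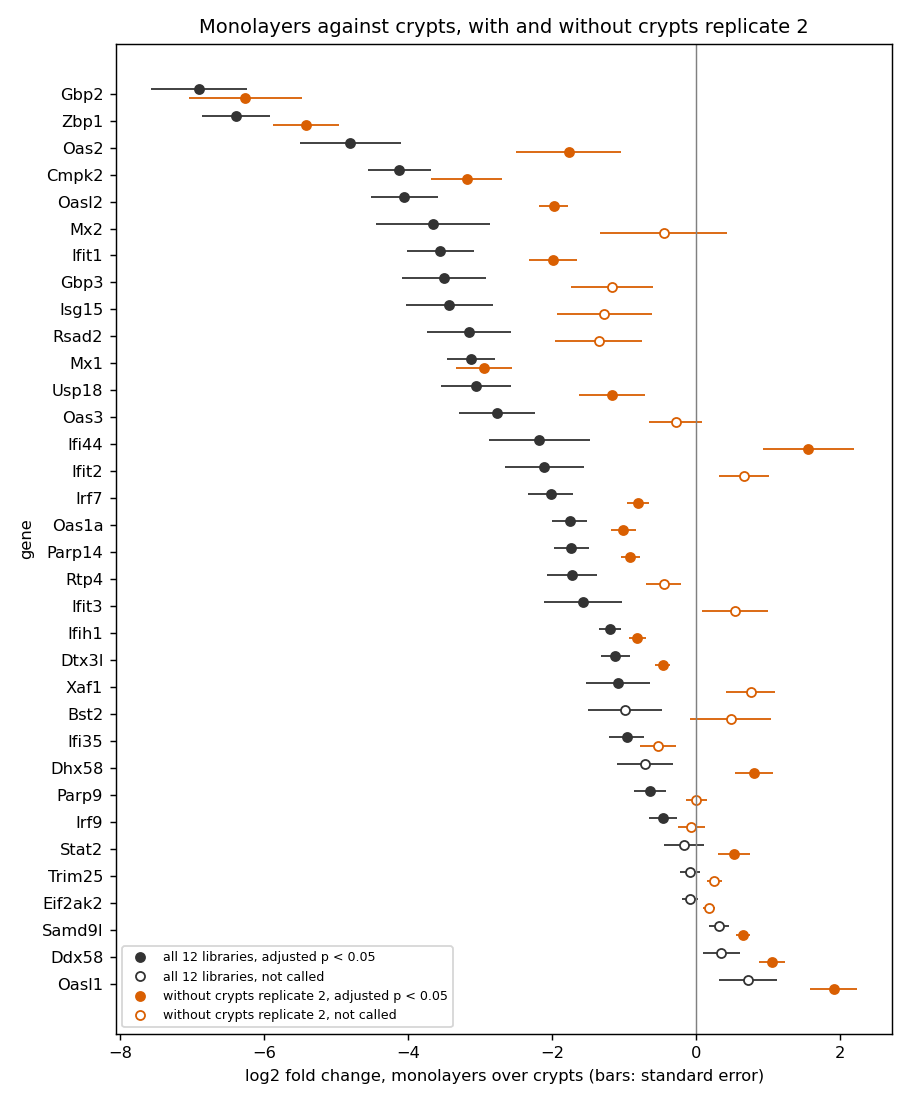
Log2 fold change of monolayers over crypts for the 34 tested members, with bars of 1 standard error, from all 12 libraries (dark) and without crypts replicate 2 (orange); filled points passed an edgeR adjusted p of 0.05. Without that library the points move to the right, 13 members are called lower and 6 higher, and 10 members change sign.

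Among the transcription factors, Irf7, which drives the amplifying wave of interferon genes, had 15.5, 12.2 and 13.4 CPM at day 3, 32.6, 23.7 and 19.98 CPM at day 4 and 114, 83.6 and 86.0 CPM at day 5, against 54.9, 277 and 57.0 CPM in crypts. The day 5 libraries lay above those of day 3 and day 4 and also above crypts replicates 1 and 3, and crypts replicate 2 was the highest of the 12. Irf7 was lower in monolayers (-2.02 ± 0.32, edgeR adjusted p = 1.91e-05) and stayed so without crypts replicate 2 (-0.80), but at day 5 it was not called against all crypts (-0.47) and was called higher without that library (0.75, edgeR adjusted p = 0.002). Irf9, the DNA-binding subunit of ISGF3, had 28.6, 16.6 and 23.4 CPM at day 3, 24.98, 23.1 and 27.7 CPM at day 4 and 34.7, 40.4 and 48.2 CPM at day 5, against 34.6, 57.5 and 26.2 CPM in crypts. Its libraries overlapped between monolayers and crypts, and its call as lower (-0.46 ± 0.20, edgeR adjusted p = 0.0498) was lost without day 3 replicate 2 or 3, day 4 replicate 1, 2 or 3, day 5 replicate 1 or 2 or crypts replicate 2, where it was -0.47 to -0.067. Stat2, the subunit of ISGF3 that activates transcription, had 26.0, 32.6 and 29.3 CPM at day 3, 45.6, 44.7 and 61.9 CPM at day 4 and 119, 52.5 and 67.4 CPM at day 5, against 28.2, 96.7 and 38.8 CPM in crypts. Crypts replicates 1 and 3 lay below every day 4 library, while crypts replicate 2 exceeded every monolayer library but day 5 replicate 1, with a change of -0.17 ± 0.27 that was not called and 0.53 without that library (edgeR adjusted p = 0.0489).

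Of the sensors of foreign nucleic acid, Zbp1, which recognises nucleic acid in the Z conformation and can start necroptosis, stood furthest from the crypts. It had 0.699, 0.143 and 0.379 CPM at day 3, 0.258, 0.280 and 0.363 CPM at day 4 and 8.26, 0.807 and 1.91 CPM at day 5, against 34.6, 119.7 and 29.3 CPM in crypts. Every monolayer library was below every crypt library, and day 5 replicate 1 was 6.09 times the mean of the other 2 day 5 libraries. The fitted difference in monolayers, -6.39 ± 0.47 and -5.42 without crypts replicate 2, is given as a description, because Zbp1 entered the test through the crypts, where it is high. Ifih1, the RNA sensor MDA5, had 31.4, 37.8 and 37.3 CPM at day 3, 53.5, 54.0 and 43.7 CPM at day 4 and 103, 81.3 and 78.3 CPM at day 5, against 86.9, 179 and 102 CPM in crypts. The libraries of day 3 and day 4 lay below all crypts and those of day 5 overlapped with them, for a change of -1.19 ± 0.15 that held without crypts replicate 2 (-0.81, edgeR adjusted p = 6.79e-06). Ddx58, the RNA sensor RIG-I, had 46.8, 39.5 and 44.6 CPM at day 3, 36.8, 49.8 and 52.8 CPM at day 4 and 79.2, 57.9 and 60.5 CPM at day 5, against 18.6, 70.7 and 29.4 CPM in crypts. Crypts replicates 1 and 3 were the lowest of the 12 libraries and crypts replicate 2 was below day 5 replicate 1 alone, and Ddx58 was not called with all crypts (0.35 ± 0.25) and was called higher without crypts replicate 2 (1.05, edgeR adjusted p = 4.54e-05). Dhx58, the sensor LGP2 that modulates the other two, had 9.69, 7.25 and 7.43 CPM at day 3, 8.27, 10.0 and 10.5 CPM at day 4 and 14.1, 15.5 and 16.1 CPM at day 5, against 5.61, 39.4 and 6.41 CPM in crypts. Crypts replicate 2 was the highest library and crypts replicates 1 and 3 the lowest, and the change was -0.70 ± 0.39, not called, with all crypts, called lower without crypts replicate 1 (-1.09) or 3 (-1.12) and 0.81 without crypts replicate 2 (edgeR adjusted p = 0.0133).

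The OAS enzymes make oligoadenylates that activate the ribonuclease RNase L. Oas1a had 9.79, 12.4 and 13.8 CPM at day 3, 18.4, 17.01 and 17.4 CPM at day 4 and 16.5, 18.02 and 19.6 CPM at day 5, against 32.4, 95.3 and 30.9 CPM in crypts. Every monolayer library lay below every crypt library, with a change of -1.76 ± 0.24, edgeR adjusted p = 3.34e-06, and -1.01 without crypts replicate 2. Oas2 had 0, 0.0717 and 0.455 CPM at day 3, 0.603, 1.96 and 0.605 CPM at day 4 and 3.23, 1.43 and 3.29 CPM at day 5, against 3.20, 62.6 and 2.44 CPM in crypts. The day 5 libraries overlapped with crypts replicates 1 and 3, and crypts replicate 2 was far above all others. Oas3 had 2.40, 2.15 and 3.33 CPM at day 3, 4.91, 3.46 and 3.27 CPM at day 4 and 26.0, 10.4 and 21.1 CPM at day 5, against 9.81, 103 and 4.78 CPM in crypts. Day 5 lay above crypts replicates 1 and 3 and below crypts replicate 2, and its called change of -2.77 ± 0.53 was -0.28 without that library (edgeR adjusted p = 0.522).

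Oasl2 and Oasl1 are OAS-like proteins. Oasl2 had 2.20, 2.15 and 2.80 CPM at day 3, 3.53, 5.23 and 4.72 CPM at day 4 and 48.4, 34.3 and 36.1 CPM at day 5, against 23.0, 313 and 35.7 CPM in crypts. All day 3 and day 4 libraries lay below all crypts, while the day 5 libraries lay above crypts replicate 1 and close to replicate 3. Its change in monolayers was -4.05 ± 0.47, edgeR adjusted p = 4.42e-07, and -1.98 without crypts replicate 2 (edgeR adjusted p = 4e-08). Oasl1, which in mouse represses the translation of Irf7, had 23.6, 29.2 and 20.6 CPM at day 3, 46.9, 49.4 and 42.5 CPM at day 4 and 157, 62.2 and 63.3 CPM at day 5, against 7.01, 61.1 and 16.6 CPM in crypts. Day 3, day 4 and day 5 were all above crypts replicates 1 and 3, the day 5 libraries also above crypts replicate 2, and at day 5 Oasl1 was higher than in crypts (1.70 ± 0.47, edgeR adjusted p = 0.00484). Eif2ak2 encodes PKR, the kinase that halts translation on binding viral RNA, and it had 128, 129 and 126 CPM at day 3, 154, 159 and 151 CPM at day 4 and 205, 188 and 181 CPM at day 5, against 129.6, 218 and 145 CPM in crypts. The 12 libraries stayed within a range of less than 2-fold, and the change in monolayers was -0.08 ± 0.11, not called.

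The IFIT proteins bind viral RNA ends and translation factors. Ifit1 had 1.498, 2.15 and 1.89 CPM at day 3, 7.58, 20.3 and 14.5 CPM at day 4 and 74.2, 19.4 and 31.5 CPM at day 5, against 29.6, 278 and 51.2 CPM in crypts. It spanned the widest range of the IFIT genes, with day 3 below all other libraries, day 4 below all crypts, and day 5 overlapping with crypts replicates 1 and 3. The change in monolayers was -3.55 ± 0.46, edgeR adjusted p = 1.96e-06, and -1.99 without crypts replicate 2 (edgeR adjusted p = 2.92e-05). Ifit2 had 6.09, 5.38 and 5.53 CPM at day 3, 11.1, 14.5 and 12.7 CPM at day 4 and 28.8, 10.8 and 16.5 CPM at day 5, against 3.81, 128 and 9.47 CPM in crypts. Crypts replicates 1 and 3 lay among or below the monolayers and crypts replicate 2 above all of them. Ifit3 had 3.59, 2.58 and 1.36 CPM at day 3, 3.10, 7.76 and 9.45 CPM at day 4 and 43.7, 11.8 and 24.8 CPM at day 5, against 4.41, 57.0 and 5.86 CPM in crypts. Day 5 lay above crypts replicates 1 and 3 in all 3 libraries. Ifit2 and Ifit3 were called lower in monolayers with all crypts (-2.11 ± 0.55 and -1.57 ± 0.54), and without crypts replicate 2 both changed sign (0.66 and 0.54) and neither was called.

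Isg15 encodes a ubiquitin-like protein, Usp18 the protease that removes it and that also damps type I receptor signalling, and Trim25 a ubiquitin ligase that acts with RIG-I. Isg15 had 0.300, 0.502 and 0.682 CPM at day 3, 0.172, 0.841 and 0.605 CPM at day 4 and 5.64, 2.33 and 3.81 CPM at day 5, against 1.001, 28.1 and 3.79 CPM in crypts. The day 3 and day 4 libraries, all under 1 CPM, lay below all crypts, and day 5 overlapped with crypts replicates 1 and 3. Its change was -3.42 ± 0.60, edgeR adjusted p = 7.12e-05, and -1.28 without crypts replicate 2 (edgeR adjusted p = 0.104), no longer called. Usp18 had 0.599, 1.15 and 0.834 CPM at day 3, 1.29, 2.43 and 3.39 CPM at day 4 and 6.85, 3.68 and 6.76 CPM at day 5, against 4.61, 46.3 and 5.59 CPM in crypts. The day 5 libraries enclosed the level of crypts replicates 1 and 3, crypts replicate 2 was highest, and the change of -3.06 ± 0.49, edgeR adjusted p = 2.54e-05 remained called without it (-1.17, edgeR adjusted p = 0.0318). Trim25 had 147, 142 and 162 CPM at day 3, 169, 144 and 164 CPM at day 4 and 255, 182 and 203 CPM at day 5, against 137, 259 and 152 CPM in crypts. Its groups overlapped, and its change of -0.087 ± 0.14 was not called.

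Parp9 and Dtx3l form a complex that joins ADP-ribosylation to ubiquitination, and Parp14 is an ADP-ribosyltransferase. Parp14 had 44.1, 43.9 and 35.9 CPM at day 3, 44.1, 50.9 and 48.3 CPM at day 4 and 145, 89.8 and 101 CPM at day 5, against 106, 373 and 121 CPM in crypts. All libraries of day 3 and day 4 lay below all crypts, and the day 5 libraries overlapped with crypts replicates 1 and 3. Its change was -1.73 ± 0.24, edgeR adjusted p = 5.21e-06, and -0.91 without crypts replicate 2 (edgeR adjusted p = 5.28e-06). Dtx3l had 55.9, 53.9 and 48.1 CPM at day 3, 66.5, 65.2 and 72.2 CPM at day 4 and 128, 103 and 102 CPM at day 5, against 92.7, 276 and 109 CPM in crypts. As with Parp14, day 3 and day 4 lay below all crypts and day 5 overlapped with them, with a change of -1.12 ± 0.20, edgeR adjusted p = 9.92e-05 and -0.46 without crypts replicate 2 (edgeR adjusted p = 0.000885). Parp9 had 33.9, 28.3 and 26.8 CPM at day 3, 34.97, 36.2 and 42.6 CPM at day 4 and 44.8, 59.7 and 63.1 CPM at day 5, against 38.7, 106 and 40.7 CPM in crypts. Crypts replicates 1 and 3 lay within the range of the monolayers, and the called change of -0.64 ± 0.22 was 0.0027 without crypts replicate 2.

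The Mx proteins are dynamin-like GTPases that trap viral particles, and the guanylate-binding proteins Gbp2 and Gbp3 coat the vacuoles of intracellular pathogens and respond strongly to type II interferon. Mx1 had 0.499, 2.15 and 2.12 CPM at day 3, 2.67, 3.55 and 1.33 CPM at day 4 and 4.84, 2.06 and 3.29 CPM at day 5, against 22.2, 26.0 and 15.1 CPM in crypts. Every monolayer library was below every crypt library, crypts replicate 2 was close to replicate 1, and Mx1 kept nearly the same fold change without that library (-3.13 ± 0.33, edgeR adjusted p = 1.48e-07, and -2.95 without it). Gbp2 had 16 counts in the 9 monolayer libraries together and 436 in the 3 crypts, at most 0.399 CPM at day 3 and day 4 and 0, 0 and 1.73 CPM at day 5, against 10.6, 30.9 and 13.2 CPM in crypts. All crypts lay above all monolayers, and the pooled level was 103-fold lower in monolayers (exact 95% interval 62.6 to 182, which covers counting error only). Gbp3 had 0.999, 1.58 and 0.985 CPM at day 3, 0.861, 2.15 and 1.21 CPM at day 4 and 8.67, 1.17 and 6.07 CPM at day 5, against 5.41, 60.2 and 3.97 CPM in crypts. Day 5 replicates 1 and 3 lay above crypts replicates 1 and 3, day 5 replicate 2 stayed at the level of day 3, and the change of -3.50 ± 0.59, edgeR adjusted p = 4.19e-05 was not called without crypts replicate 2 (-1.17). Mx2 had 0 to 1.96 CPM at day 3 and day 4 and 1.21, 0.986 and 0.520 CPM at day 5, against 0, 18.8 and 1.26 CPM in crypts. Crypts replicate 2 held 144 of its 158 counts in crypts.

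Samd9l, an antiviral and growth-restraining protein, had 167, 145 and 154 CPM at day 3, 213, 236 and 221 CPM at day 4 and 374, 340.1 and 298 CPM at day 5, against 130.2, 257 and 159 CPM in crypts. The day 5 libraries lay above all crypts (0.89 ± 0.17, edgeR adjusted p = 0.000192), and day 4 lay above crypts replicates 1 and 3 and below replicate 2. Cmpk2, a mitochondrial nucleotide kinase, had 0.899, 0.933 and 1.14 CPM at day 3, 0.689, 1.03 and 1.09 CPM at day 4 and 0.202, 3.50 and 1.04 CPM at day 5, against 9.41, 40.7 and 12.1 CPM in crypts. All monolayers lay below all crypts, with a change of -4.12 ± 0.44, edgeR adjusted p = 1.59e-07, and -3.19 without crypts replicate 2. Rsad2, or viperin, which makes a chain-terminating nucleotide, had 0, 1.36 and 0.530 CPM at day 3, 1.29, 6.26 and 7.27 CPM at day 4 and 3.02, 3.23 and 4.51 CPM at day 5, against 3.20, 49.3 and 8.21 CPM in crypts. Day 4 overlapped with crypts replicates 1 and 3 and day 3 lay below all crypts, and the change of -3.15 ± 0.59, edgeR adjusted p = 0.000124 was not called without crypts replicate 2 (-1.36).

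Rtp4, a chaperone of membrane receptors, had 3.10, 3.23 and 3.56 CPM at day 3, 6.89, 8.79 and 11.1 CPM at day 4 and 26.8, 26.8 and 31.4 CPM at day 5, against 9.41, 67.3 and 15.9 CPM in crypts. Day 5 lay above crypts replicates 1 and 3 and well above day 3, and its call as lower in monolayers (-1.72 ± 0.35) was lost without crypts replicate 2 (-0.45). Ifi44 had 2.40, 1.22 and 1.74 CPM at day 3, 4.57, 5.05 and 3.27 CPM at day 4 and 38.5, 10.7 and 13.2 CPM at day 5, against 0, 69.6 and 3.07 CPM in crypts. The mean over all 3 crypts rested on replicate 2, replicate 1 had no count, and the change was -2.18 ± 0.70 with all crypts, called lower, and 1.55, edgeR adjusted p = 0.0399, called higher, without that library. The latter is given as a description, because Ifi44 entered the test through the monolayers. Xaf1, a partner of the apoptosis inhibitor XIAP, had 3.20, 4.45 and 4.93 CPM at day 3, 5.08, 6.82 and 6.78 CPM at day 4 and 12.7, 11.1 and 10.6 CPM at day 5, against 4.41, 34.3 and 3.61 CPM in crypts. Crypts replicates 1 and 3 were at the level of day 3, and a call as lower (-1.08 ± 0.44) was lost without day 3 replicate 1 or 2, day 4 replicate 1, 2 or 3, day 5 replicate 2 or 3 or crypts replicate 2, where it was -1.10 to 0.76. Ifi35 had 9.59, 10.4 and 9.55 CPM at day 3, 13.8, 8.97 and 14.7 CPM at day 4 and 23.8, 16.5 and 12.5 CPM at day 5, against 13.4, 38.2 and 23.4 CPM in crypts. Its groups overlapped, and a call as lower (-0.97 ± 0.24) was lost without crypts replicate 2 (-0.53). Bst2, the tetherin that holds budding virus at the membrane, had 1.87 to 3.69 CPM at day 3 and day 4 and 1.61, 2.15 and 5.37 CPM at day 5, against 1.60, 12.7 and 2.35 CPM in crypts, and was not called (-0.99 ± 0.51) except as lower without crypts replicate 1 (-1.39) or 3 (-1.37).

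The comparison of days asks whether the genes change as the monolayer ages after plating, and it does not use the crypts' levels. Of the 34 tested, 19 were called higher and 0 lower at day 5 against day 3, where edgeR called 9.9% of all genes higher and 10.5% lower. The fold change was positive for all 34, with a median of 1.57 against -0.012 over all genes. For 29 of them every day 5 library lay above every day 3 library (19.4% of all genes). Group means stood in the order day 3, day 4, day 5 from lowest to highest for 28 of the 35 members, as they did for 25.1% of all genes. By role, all 3 transcription factors and all 3 ADP-ribosylation genes passed, 4 of 6 OAS genes and PKR, 2 of 3 IFIT genes, 2 of 3 genes of the Isg15 group, 2 of 4 sensors, 0 of 4 GTPases and 3 of the 8 other effectors tested.

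The largest called changes at day 5 against day 3 were those of Ifit1 (4.43 ± 0.78, edgeR adjusted p = 0.000444), Oasl2 (4.03 ± 0.76, edgeR adjusted p = 0.000771) and Ifi44 (3.53 ± 1.05), followed by Ifit3 (3.41 ± 0.78) and Rtp4 (3.09 ± 0.51). Irf7 changed by 2.79 ± 0.46, edgeR adjusted p = 0.000217. Stat2 changed by 1.42 ± 0.34, Samd9l by 1.12 ± 0.17 and Eif2ak2 by 0.58 ± 0.14, all called. Also called were Zbp1 (3.03), Isg15 (2.90), Oas3 (2.83), Usp18 (2.67), Oasl1 (1.93), Parp14 (1.43), Ifih1 (1.30), Dtx3l (1.07), Parp9 (0.92) and Irf9 (0.85). Mx1 (1.001 ± 0.50), Cmpk2 (0.85 ± 0.69) and Bst2 (0.085 ± 0.67) were not called. Leaving out 1 library ended 7 of these calls. Irf9 was not called without day 3 replicate 2 or 3 or day 5 replicate 3 (0.66 to 0.87). Zbp1 was not called without day 3 replicate 2 or 3 or day 5 replicate 1 (1.65 to 3.03). Oas3 was not called without day 3 replicate 1 or 2 or day 5 replicate 1 (2.54 to 2.78). Isg15 was not called without day 3 replicate 1, 2 or 3 or day 5 replicate 1 or 3 (2.54 to 3.19). Usp18 was not called without day 3 replicate 1 or 3 (2.49 to 2.64). Parp9 was not called without day 3 replicate 2 or 3 or day 5 replicate 2 or 3 (0.83 to 0.89). Ifi44 was not called without day 3 replicate 1, 2 or 3 or day 5 replicate 1 (2.74 to 3.77).

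**Figure D4:**
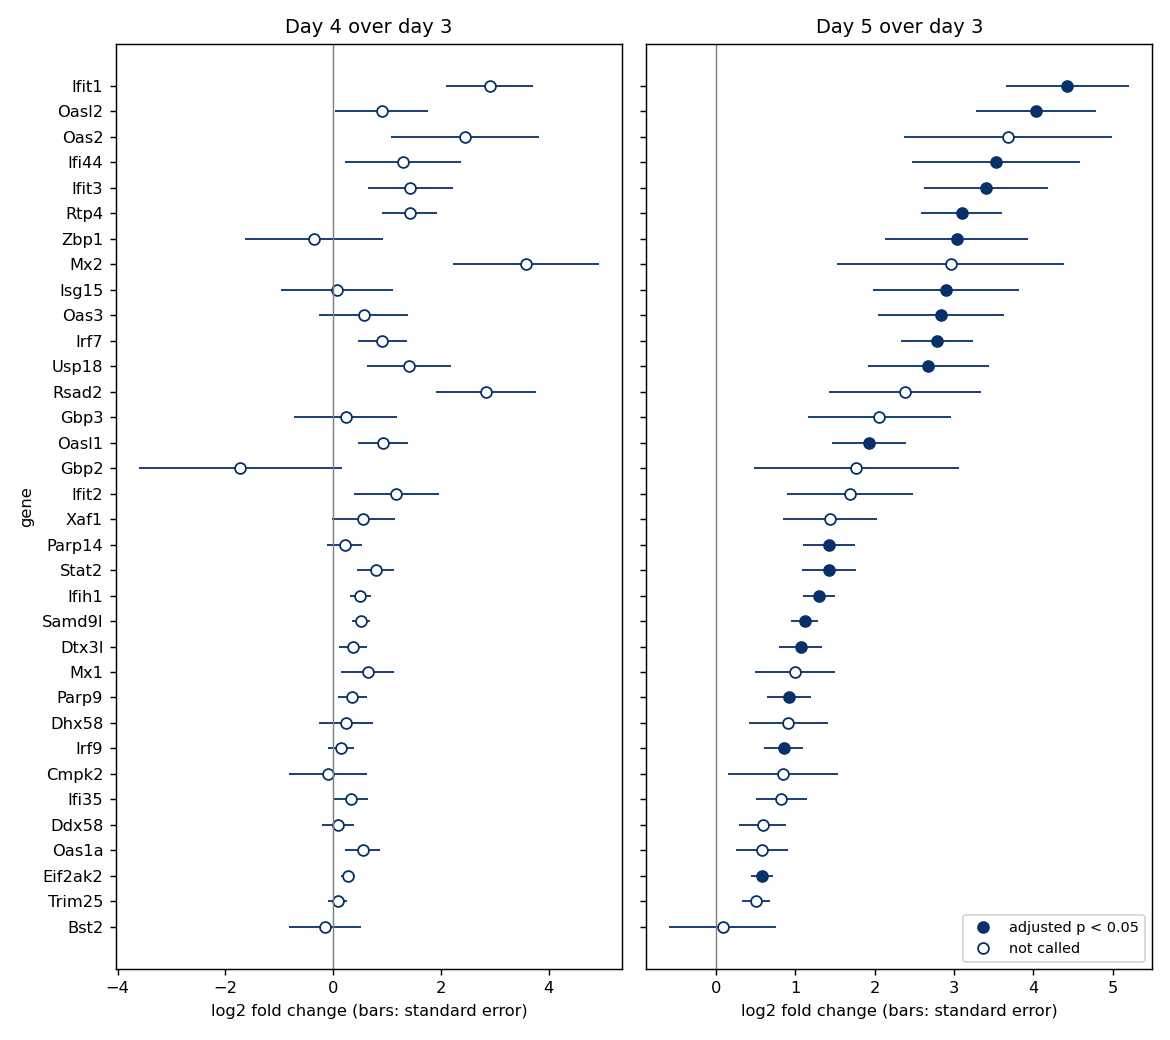
Log2 fold change of day 4 over day 3 (left) and of day 5 over day 3 (right) for the 34 tested members, with bars of 1 standard error; filled points passed an edgeR adjusted p of 0.05. At day 4 all points are open, and 19 are filled at day 5, where all 34 lie to the right of 0.

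At day 5 against day 4, 7 members were called higher and 0 lower by edgeR (3.36% and 4.2% of all genes), and for 21 members every day 5 library lay above every day 4 library (13.3% of all genes). The 7 were Irf7 (1.88 ± 0.44), Ifih1 (0.79 ± 0.20), Zbp1 (3.39 ± 0.98), Oasl2 (3.13 ± 0.71), Parp14 (1.22 ± 0.33), Samd9l (0.60 ± 0.17) and Rtp4 (1.67 ± 0.47). At day 4 against day 3, edgeR called 0 members either way (1.59% of all genes higher and 1.17% lower), with 7 at an unadjusted p under 0.05 and 1 called by DESeq2. Even so, for 18 members every day 4 library lay above every day 3 library (13.5% of all genes), among them Ifit1 (2.90 ± 0.80) and Rtp4 (1.42 ± 0.51). These counts rest on a spread estimated over all 12 libraries, and without crypts replicate 2 they were 29 at day 5 against day 3 (10.5% of all genes higher), 18 at day 5 against day 4 (4.18%) and 6 at day 4 against day 3 (2.16%), all higher. The count at day 5 against day 4 was 3 without day 4 replicate 1, 1 without day 4 replicate 2, 1 without day 4 replicate 3 and 2 without day 5 replicate 1.

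**Figure D5:**
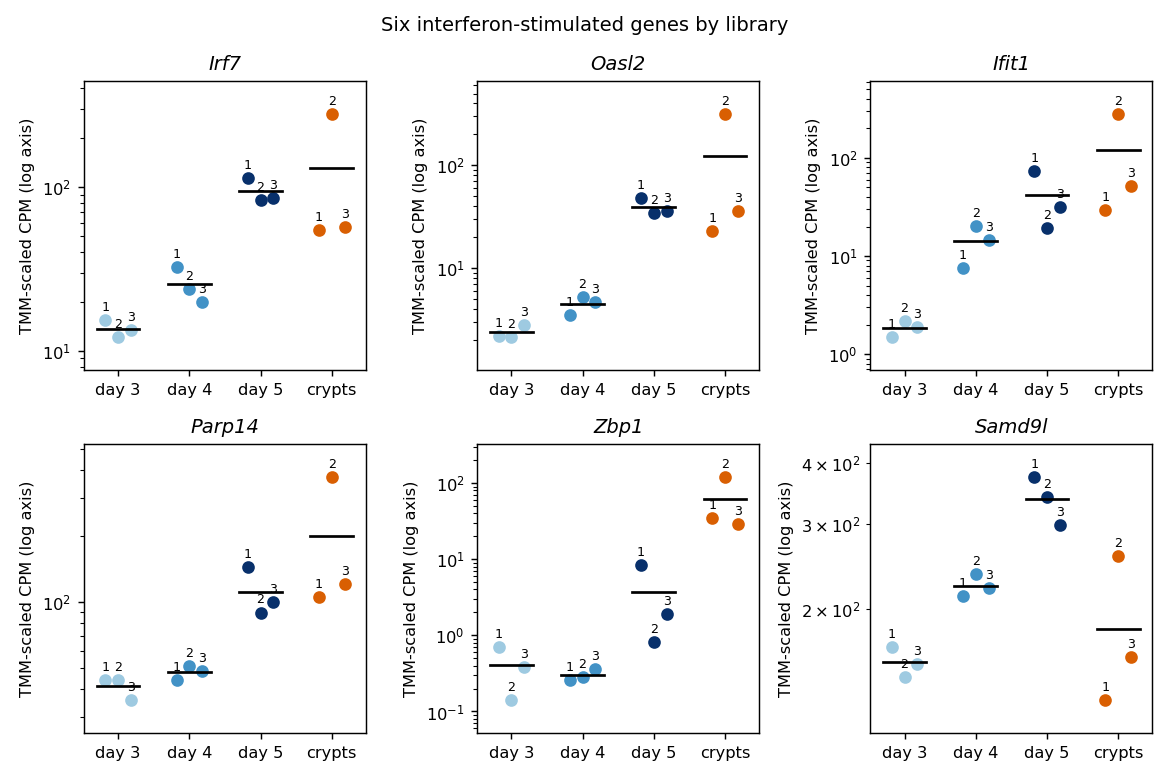
Level of 6 members in each library (points, numbered by replicate) with the group mean (line), as TMM-scaled CPM on a log axis, for monolayers at day 3, day 4 and day 5 and for crypts. Irf7, Oasl2, Ifit1, Parp14 and Samd9l have their highest monolayer mean at day 5, while Zbp1 stays below every crypt library at all 3 days.

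Among the day 5 libraries, replicate 1 was the highest for 24 of the 35 members (37.2% of all genes), replicate 2 for 2 (29.8%) and replicate 3 for 9 (31.5%). It exceeded the mean of the other 2 over 2-fold for 7 members (2.92% of all genes on the same scale), with ratios on CPM of 6.09 for Zbp1, 3.23 for Ifi44, 2.91 for Ifit1 and 2.503 for Oasl1. Irf9 and Parp9 were instead lowest there. Malat1, a nuclear noncoding RNA, took its largest share of counts at day 5, with 5.80, 5.98 and 5.65% of gene counts in the day 3 libraries, 8.05, 7.72 and 7.40% in those of day 4 and 12.2, 11.5 and 9.30% in those of day 5, against 2.34, 2.02 and 2.27% in crypts. The mean share was higher with each day, and its part in the result was not tested. Day 5 replicate 1 also had the fewest genes with a count, 12293, at a total of 5456913 gene counts. A fit without both crypts replicate 2 and day 5 replicate 1 was chosen after the data were seen. It called 25 members higher at day 5 against day 3 and 0 lower (1300 and 1360 of 13125 genes). Of the 25, 18 were among the 19.

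To compare members with each other, levels were divided by the exonic length of the gene in the GENCODE M21 annotation, as mean CPM per kilobase. At day 5 the order was Samd9l (62.2), Eif2ak2 (37.5), Trim25 (37.1), Oasl1 (36.1) and Irf7 (25.02), of which Eif2ak2, Trim25 and Oasl1 lay closer to each other than the spread between their libraries. In crypts the mean put Ifit1 first (45.1), before Irf7 (34.4), Samd9l (33.6), Eif2ak2 (32.1) and Trim25 (31.7), but the means of Ifit1 and Irf7 rested on crypts replicate 2.

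Genes that make and transmit the interferon signal, as far as they could be tested, were called in both directions. With all crypts 43.8% were higher and 40.6% lower, both above the shares of all genes. Of 47 listed pathway genes, 32 were tested, of which 14 were called higher and 13 lower in monolayers (30.7% and 32.8% of all genes, median -0.034, against -0.026 over all genes). Without crypts replicate 2, 14 were called higher and 9 lower (29% and 30.4% of all genes). The 14 include Irf5, which had no count in crypts and passed the filter through the monolayers, which fixed its direction. The 12 ligand genes were too low to test, 9 of them had no count in any library, and the rest had 6 counts in monolayers (5 of Ifnk and 1 of Ifne) and 8 in crypts, all of Ifng. Of the 6 receptor subunits, 5 were higher in monolayers and Il10rb was not called (-0.23 ± 0.12). Ifnlr1, the subunit specific to type III interferon, had 27.3, 35.8 and 41.0 CPM at day 3, 39.5, 40.3 and 38.5 CPM at day 4 and 55.8, 38.1 and 37.6 CPM at day 5, against 12.4, 12.9 and 10.0 CPM in crypts. Every monolayer library lay above every crypt library (1.74 ± 0.17, edgeR adjusted p = 7e-08), with or without crypts replicate 2 (1.83). Ifnar2 (1.30 ± 0.18), Ifngr1 (0.65 ± 0.06), Ifnar1 (0.52 ± 0.10) and Ifngr2 (0.28 ± 0.08) were also called higher, as were the kinases Jak2 (1.35 ± 0.11), Ikbke (0.61 ± 0.13) and Jak1 (0.41 ± 0.08), the adaptor Traf3 (1.02 ± 0.12) and the DNA sensor Aim2 (0.91 ± 0.10).

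Of the 6 factors of the pathway, 5 were lower in monolayers. Irf8, a factor best known from myeloid cells, had 7.49, 8.54 and 6.14 CPM at day 3, 4.31, 8.04 and 7.39 CPM at day 4 and 11.3, 6.64 and 9.36 CPM at day 5, against 51.5, 61.2 and 57.1 CPM in crypts. All crypts lay far above all monolayers (-2.91 ± 0.17, edgeR adjusted p = 4.66e-11). Irf1, a factor induced by type II interferon that also keeps basal expression of several of its targets, had 27.0, 27.7 and 28.5 CPM at day 3, 54.4, 56.4 and 47.3 CPM at day 4 and 69.1, 76.6 and 77.3 CPM at day 5, against 107, 162 and 146 CPM in crypts. Monolayers stayed below crypts at every day (-1.54 ± 0.10, edgeR adjusted p = 1.79e-10), although day 5 exceeded day 3 by 1.42 ± 0.14, edgeR adjusted p = 8.31e-07. The adaptor Myd88 (-1.37 ± 0.24) and the RNA sensor Tlr3 (-1.03 ± 0.13) were lower in monolayers. At day 5 against day 3, 10 of the 32 pathway genes were called higher (9.9% of all genes), among them Jak2 (0.64 ± 0.12), and 1 lower, Tmem173, the adaptor STING (-1.68 ± 0.47), whose call was lost without day 3 replicate 1 and whose change was -2.05 to -1.29 over all single libraries left out. The count of 10 was 6 without day 3 replicate 2 or day 5 replicate 2, and 6 to 11 over all libraries left out in turn.

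A second list of 84 interferon-inducible genes outside the 35, of which 78 had a row and 57 were tested, held 42 called lower and 5 higher in monolayers (32.8% and 30.7% of all genes). Of the 42, 7 (Gbp6, Iigp1, Ifi47, Ifitm3, Sp110, Phf11b and Ccl5) passed the filter through the crypts, which fixed their direction, and of the other 50 genes 35 were called lower. Without crypts replicate 2, 32 were called lower, 25 of them among those 50, and 7 higher (30.4% of all genes lower and 29% higher). Crypts replicate 2 was the highest crypt library for 51 of the 57 (33.3% of all genes) and over 2-fold above the other 2 for 34 (2.9% of all genes). The interferon-induced membrane protein Ifitm3, which blocks viral entry, had 37 counts in all monolayers and 600 in crypts, a pooled level 61.2-fold lower (exact 95% interval 43.9 to 87.8). Slfn9, of the Schlafen family, had 3.69, 3.87 and 5.23 CPM at day 3, 2.67, 3.37 and 3.15 CPM at day 4 and 0.605, 1.26 and 1.73 CPM at day 5, against 43.5, 80.4 and 68.7 CPM in crypts. All crypts lay above all monolayers and the 3 crypts lay within 2-fold of each other (-4.67 ± 0.20, edgeR adjusted p = 2.52e-13), and Slfn9 was lower at day 5 than at day 3 (-1.79 ± 0.36), against the direction of most members.

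Of 8 further genes called lower in monolayers with and without crypts replicate 2, 2 kept a fold change of like size: Sp100 (-4.88 ± 0.44, and -4.38 without it), a component of nuclear bodies, and Ifitm2 (-2.89 ± 0.23, and -2.93). The other 6 lay closer to 0 without that library. Of the tripartite motif family, Trim30d was at -3.15 ± 0.29 with it and -2.52 without it, and Trim30a at -4.45 ± 0.58 and -2.44. Apol9a was at -3.94 ± 0.57 and -1.86. Irgm2, a GTPase induced by type II interferon, was at -2.98 ± 0.35 and -1.95, the helicase-like Ddx60 at -2.93 ± 0.43 and -1.13, and Phf11d at -2.89 ± 0.40 and -1.81. The 5 called higher in monolayers were Gbp8, Cxcl11 (2.30), Trim34a (0.70), Isg20 (0.49) and Tdrd7 (0.44). Cxcl11 passed the filter through the monolayers, which fixed its direction. The call of Trim34a was lost without day 3 replicate 2 or 3, day 4 replicate 2 or 3, day 5 replicate 1 or 3 or crypts replicate 1 or 3, at 0.37 to 1.56 over all left out, and that of Isg20 without crypts replicate 1 or 2, at 0.42 to 0.55. Gbp8 had 43.5, 36.6 and 34.8 CPM at day 3, 42.6, 38.3 and 45.9 CPM at day 4 and 45.4, 42.8 and 42.1 CPM at day 5, against 5.01, 9.40 and 3.97 CPM in crypts. Every monolayer library lay above every crypt library (2.76 ± 0.21, edgeR adjusted p = 1.64e-09), while Gbp2 of the same family was close to 0 there. At day 5 against day 3, 20 of the 57 were called higher and 2 lower (9.9% and 10.5% of all genes), and the 2 were Slfn9 and Isg20 (-0.88 ± 0.21). Ddx60 (3.05 ± 0.65), Trim30d (3.03 ± 0.44) and Phf11d (2.72 ± 0.62) were among the 20. That count was 12 without day 3 replicate 1 or 3, 13 without day 3 replicate 2, and 12 to 27 over all libraries left out in turn, the highest without crypts replicate 2.

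Levels of leukocyte and mesenchymal markers differed between the crypt libraries. The summed level of 27 leukocyte markers was 25.5 to 54.9 CPM in monolayers, most of it from Cd68, against 54.7, 111 and 38.8 CPM in crypts, and 9 of the 27, among them Cd3g, Cd4 and Nkg7, had no count in any monolayer library. Of the 12 leukocyte markers tested, 9 were called lower and 2 higher in monolayers (32.8% and 30.7% of all genes). Markers nearly absent from the monolayers or from the crypts could pass the filter only through the other side. These calls are therefore given as a description. The 2 higher were Cd68 (4.41 ± 0.27), at 19.96 to 45.5 CPM in monolayers against 0.601, 2.09 and 1.35 CPM in crypts, and Csf1r (2.73 ± 0.81). Ptprc, the pan-leukocyte CD45, had at most 0.605 CPM in monolayers, against 21.6, 19.7 and 9.56 CPM in crypts. Cd74, the invariant chain of class II antigen presentation, which interferon gamma also induces in epithelium, had at most 0.287 CPM in monolayers, against 9.61, 28.3 and 3.07 CPM in crypts. The summed level of 11 mesenchymal markers was 1.80 to 5.44 CPM in monolayers, against 48.7, 97.9 and 23.1 CPM in crypts. Ptprc was no higher in crypts replicate 2 than in replicate 1, while the leukocyte sum, Cd74 and the mesenchymal sum were highest in replicate 2. The summed endothelial markers were 0.538 to 4.02 CPM in monolayers, against 5.01, 6.79 and 3.52 CPM in crypts. The part of such cells in the levels of the 35 members was not tested.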

How the data were processed

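Total RNA of 12 libraries was used, grouped by the labels alone. The values are the counts deposited by the authors, raw whole numbers for each gene symbol. The submitters' processing notes list CASAVA 1.9, TopHat2 and HTSeq along with 2 builds, mm9 and mm10, of unstated role, so the only coordinates printed are those of RefSeq promoters on GRCm38.p6. How the counting treated strand is not stated in the sources used here, and genes with an antisense or overlapping partner are uncertain. The 5 summary lines per file, which name no gene, stayed out of library sizes and tests. Reads in no gene made up 38.7 to 49.0% and reads without a unique alignment 14.2 to 19.2% of the reads listed. Since reads without a unique alignment were not given to genes, paralogs with near-identical stretches (Ifit, Oas1, Gbp, Trim30 and Schlafen families) may be under-counted.

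The test was that of edgeR 4.0.16 in R 4.3.3 (filterByExpr with a minimum count of 10, TMM factors 0.910 to 1.12, quasi-likelihood test) in 1 fit of all 12 libraries with group as its term, with Benjamini-Hochberg adjustment over the 12863 genes tested. Each SE derives from the F statistic of its fold change. The procedure was first tried on simulated data. Within each group every pair of libraries differed by more than sampling noise, so all were counted. The gene counts behind each library, 4518314 to 14290393, set its precision, and intervals cover counting error only. The alternatives were DESeq2 1.42.0 size factors and Wald test, library totals, no filter, a minimum of 1 CPM in 3 libraries, fits of the compared groups alone, a replicate block, and each library left out in turn. Leaving out crypts replicate 2 and day 5 replicate 1 together was added after the data were seen. All 35 members were accounted for, with the value of every library for the 30 that averaged at least 5 CPM and for those called between days. Genes of the pathway list and of the second list were named where called and at 5 CPM or more, up to 10 of the largest changes, besides Irf1 and the receptors of type I and III interferon. Further genes (such as Gbp8, Isg20, Trim34a, Tdrd7, Cxcl11, Ifngr1, Ifngr2, Cd68 and Csf1r) were named after their values were seen, and some genes of the lists are not reported here. The members and lists were chosen with earlier results of these data known.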

Additional observations from a re-analysis of the deposited data

How the results depend on the processing

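The counts of called members depended most on crypts replicate 2. With each library left out in turn, 13166 to 13407 genes were tested. Members called lower in monolayers against crypts then numbered 13 to 28 (3921 to 4594 genes) and higher 0 to 6 (3722 to 4129 genes). At day 3 against crypts the counts were 20 to 31 lower (3207 to 4015 genes) and 0 to 2 higher (3332 to 3893). At day 4 they were 13 to 27 lower (3400 to 4082) and 0 to 3 higher (3427 to 3909). At day 5 they were 5 to 18 lower (3475 to 3862) and 2 to 15 higher (3416 to 3659). Between days the higher calls numbered 13 to 29 at day 5 against day 3 (840 to 1399 genes). They numbered 1 to 18 at day 5 against day 4 (210 to 550) and 0 to 6 at day 4 against day 3 (50 to 284). Between days 0 members were lower throughout. Of the pathway genes 13 to 14 were called higher and 9 to 14 lower in monolayers, and of the second list 2 to 7 higher and 32 to 45 lower. The log2 fold change in monolayers changed sign without crypts replicate 2 for 10 members, whose ranges over the libraries left out were Stat2 -0.46 to 0.53, Dhx58 -1.12 to 0.81, Eif2ak2 -0.21 to 0.18, Ifit2 -2.63 to 0.66, Ifit3 -2.04 to 0.54, Trim25 -0.25 to 0.25, Parp9 -0.88 to 0.0027, Bst2 -1.39 to 0.48, Xaf1 -1.56 to 0.76 and Ifi44 -2.73 to 1.55. Without both crypts replicate 2 and day 5 replicate 1 the values were Stat2 0.39, Dhx58 0.82, Eif2ak2 0.16, Ifit2 0.51, Ifit3 0.36, Trim25 0.21, Parp9 0.045, Bst2 0.56, Xaf1 0.74 and Ifi44 1.30. In that fit of 13125 genes, 16 members were lower and 6 higher in monolayers (4204 and 4010 genes). At day 3 against crypts 2 were higher (3863 genes). At day 4 13 were lower and 6 higher (3874 and 3861), and at day 5 5 were lower and 16 higher (3634 and 3664). Between days 11 were higher at day 4 against day 3 (412 genes) and 11 at day 5 against day 4 (486 genes). The second list then had 8 higher. The day comparisons share 1 estimate of the spread with the crypts.

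With no filter on low counts, 18195 genes and all 35 members entered the fit. Higher calls against crypts numbered 3 members in monolayers (4049 genes), 2 at day 4 (3740 genes) and 4 at day 5 (3739 genes). Between days they numbered 30 at day 5 against day 3 (1341 genes). They numbered 22 at day 5 against day 4 (608 genes) and 14 at day 4 against day 3 (361 genes). Fits of the compared groups alone called 17 of 31 members higher at day 5 against day 4 (499 of 11763 genes). At day 4 against day 3 they called 13 of 30 higher (583 of 11985 genes). At day 5 against crypts they called 7 of 33 lower (3132 of 11985 genes). DESeq2 called 7 lower at day 5 against crypts (3927 of 12863 genes) and 1 higher at day 4 against day 3 (365 of 12863 genes). Library totals left 2 of the second list higher in monolayers (3094 of 12863 genes). The cause of these shifts was not tested. No pairing by replicate number was seen: deviations of same-numbered libraries correlated at -0.034 to 0.058 and of others at -0.077 to 0.026. The labels do not say if same-numbered libraries share an animal or culture, and these correlations cannot settle it. With the replicate block, 22 members were lower and 1 higher in monolayers (4100 and 3896 of 12863 genes). At day 5 against crypts 7 were lower and 3 higher (3618 and 3610 genes). At day 4 against day 3, 1 was higher (183 genes). At these depths the members under 1 CPM in monolayers, such as Gbp2, rest on a few counts each.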
